A study of Mus musculus with 6 samples.

Results

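The genes that build and use the microtubule cytoskeleton were followed in mouse cells expressing an expanded TATA-binding protein: tubulins, microtubule-associated proteins, stathmins and collapsin response mediators, kinesins, and the dynein and dynactin complexes with their regulators. A gene belonged to the set when its symbol in the probe annotation matched a fixed list of family names, with no use of the measured values. This gave 58 of the 6788 genes that a probe of a single symbol represents, read from 82 cDNA clones, each printed as a pair of spots. The set holds 7 tubulin genes, 7 microtubule-associated genes, 3 stathmin or collapsin response mediator genes, 22 kinesin genes, 13 dynein and dynactin genes and 6 dynein regulators and adaptors, while neurofilament genes, also within the rule, had no such probe.

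RNA came from Neuro-2a cells, a mouse neuroblastoma line, 60 h after transient transfection. The 59Q cells received human TBP with a repeat length of 59 fused to GFP, and the N3 cells received the N3 vector. Both RNAs were hybridized together on each of 6 cDNA arrays. 59Q RNA carried Cy5 on replicates 1, 3, 4 and 6 and Cy3 on replicates 2 and 5, and it was channel 1 only on replicate 1. Transfection was transient, so each RNA averages transfected and untransfected cells, and a change in RNA per cell cannot be told apart from a change in the share of a kind of cell. A ratio holds no level, so the neuronal identity of the line could not be checked from its markers: of 13 neuroblast markers 4 were tested, with 2 mean values above 0 and 2 below, and of 16 markers of other cells 8 were tested, with 3 above and 5 below.

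Each value is a Z-ratio, a score with mean 0 and SD 1 over the spots of an array, from which no fold change can be read. Positive values were read as higher in 59Q cells, since the methods call these treated and the N3 cells control. The study also presents its Z-ratios as a change in 59Q cells relative to vector, which makes this direction likely, but whether every deposited column was turned that way is not stated. Over the 4926 genes on all 6 arrays, Pearson's r between arrays of opposite dye orientation ran from -0.480 to -0.0162 (8 pairs), against 0.0933 to 0.378 between arrays of the same orientation (7 pairs). Over the 46 members among them the ranges were -0.749 to -0.240 and -0.0870 to 0.503. Gene and class means are therefore also given read as Cy5 over Cy3, that is with replicates 2 and 5 changed in sign. If the deposited columns are 59Q over N3, as taken here, the turned values contrast the dyes. If the columns were instead deposited as Cy5 over Cy3, the turned values would be 59Q over N3. Which of these holds was not tested, so a high or low value in that reading names neither a dye nor a 59Q effect. The study's methods describe 6 replicates, made from cultured cells in different batches. The series instead speaks of 4 biological replicates and of flip-dye pairs that are not identified. Some of the 6 arrays may therefore share RNA, and p-values then measure a spread that is partly technical. The 6 arrays limit the precision of every mean. The median gene lay at -0.0449 as deposited, at -0.161 where 59Q was in Cy5 and at 0.159 where it was in Cy3, which is the baseline for the class medians below.

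Microtubules are hollow polymers of alpha- and beta-tubulin dimers, whose growth is seeded by gamma-tubulin complexes, stabilised by proteins such as tau and opposed by stathmins. Kinesins carry cargo mostly outward along axonal microtubules, and cytoplasmic dynein, with its activator dynactin, carries cargo back towards the cell body. Long neuronal processes depend on both directions of transport.

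Of the 58 genes, 55 had values on at least 4 arrays and were tested, 46 of them on all 6. The pseudogene Tubb2a-ps2 was measured on 2 arrays and the kinesin genes Kif18a and Kif3a on 3. As deposited, 0 of the 55 passed in limma (Benjamini-Hochberg adjusted p under 0.05 over 6463 genes), where 0% of all genes were called. Their smallest adjusted p was 0.999. At an unadjusted p under 0.05 there were 2 of 55, or 3.64%, beside 2.61% of all genes. Read as Cy5 over Cy3, 0 of 55 passed, against 0.279% of all genes. In that reading an unadjusted p under 0.05 was reached by 5 members with higher values (9.09%, beside 6.42% of all genes) and by 7 with lower values (12.7%, beside 13.4%). The 5 were Tuba1b, Tubb2b, Tubb3, Tubb5 and Kif28, and the 7 were Mapt, Kifc2, Dync1h1, Dync1i2, Dynll1, Dynll2 and Ndel1. The difference between the dye orientations was itself fitted gene by gene as a dye coefficient. This coefficient is the distance of either orientation's mean from the midpoint between them, and so is smaller than the whole difference. It passed in 0 of 55 members (0% of all genes) and had an unadjusted p under 0.05 in 13, or 23.6%, beside 16.1% of all genes.

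The tubulins varied most between arrays. As deposited their means lay close to 0, with a class median of 0.119 over the 6 tested genes (4 above 0 and 2 below), because large values on replicate 1 met large values of the other sign on replicate 2. Their median SD over arrays was 1.34, beside 0.644 for all genes. Without replicate 1 the tubulin median was -0.370, and without replicate 2 it was 0.579. With 59Q in Cy5 all 6 tubulins had a mean above 0 (median 0.787), and with 59Q in Cy3 all 6 had a mean below 0 (median -1.09). Over all 6463 genes, 2309 lay above 0 in the first orientation and 2395 below 0 in the second. Read as Cy5 over Cy3 the class median was 0.930, with gene means between 0.476 and 1.44, whereas all genes had a median of -0.160.

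**Figure D1:**
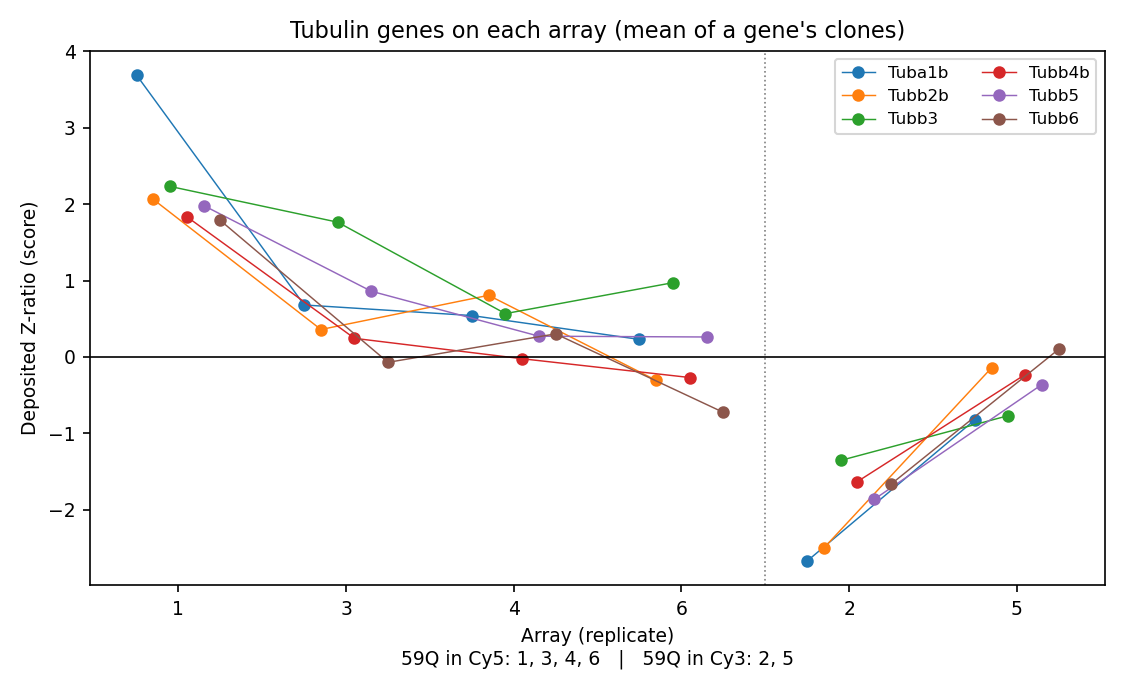
Z-ratio (score, vertical axis) of each of 6 tubulin genes on each array (horizontal axis), with the 4 arrays that had 59Q in Cy5 left of the dotted line and the 2 that had 59Q in Cy3 right of it. Each point averages the clones of a gene, and thin lines only join points of 1 gene. All 6 genes lie between 1.79 and 3.69 on replicate 1 and between -2.67 and -1.36 on replicate 2, and between -0.824 and 0.972 on the other arrays except for Tubb3 at 1.76 on replicate 3.

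The start-site windows of the tubulin genes that have one in the RefSeq table are shown because these genes shared a sign on each of replicates 1 and 2 and the transfected protein is a variant of the factor that binds the TATA box. The window of Dynll1, a dynein light chain that had the opposite signs there, is set beside them. Each line holds 300 bases of GRCm38.p6, 250 before and 50 after the annotated start, read along the gene's strand, and capitals mark the TATA box letters TATAAA, the CCAAT box letters CCAAT and the GC box letters GGGCGG on either strand. They lie at chr15:98934341-98934640 (minus strand), chr8:123411303-123411602 (plus), chr17:35838252-35838551 (minus), chr2:25224653-25224952 (minus) and chr5:115300941-115301240 (minus).
Tuba1b: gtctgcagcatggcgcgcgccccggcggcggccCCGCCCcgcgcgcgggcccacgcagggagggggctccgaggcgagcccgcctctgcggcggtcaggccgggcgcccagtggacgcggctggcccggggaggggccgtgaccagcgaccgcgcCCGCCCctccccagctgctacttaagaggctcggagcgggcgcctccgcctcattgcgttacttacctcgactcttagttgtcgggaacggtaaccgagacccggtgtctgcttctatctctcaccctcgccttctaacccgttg
Tubb3: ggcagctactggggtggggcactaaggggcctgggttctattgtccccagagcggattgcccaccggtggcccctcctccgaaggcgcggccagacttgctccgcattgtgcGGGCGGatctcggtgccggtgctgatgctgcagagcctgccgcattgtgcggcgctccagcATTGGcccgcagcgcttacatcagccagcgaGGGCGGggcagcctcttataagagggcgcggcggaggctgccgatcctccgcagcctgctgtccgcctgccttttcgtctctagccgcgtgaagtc
Tubb5: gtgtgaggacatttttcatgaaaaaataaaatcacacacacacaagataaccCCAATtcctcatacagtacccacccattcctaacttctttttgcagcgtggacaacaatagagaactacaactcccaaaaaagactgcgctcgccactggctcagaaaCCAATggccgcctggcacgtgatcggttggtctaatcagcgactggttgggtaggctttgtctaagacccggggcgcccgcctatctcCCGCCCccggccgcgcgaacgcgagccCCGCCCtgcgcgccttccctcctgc
Tubb4b: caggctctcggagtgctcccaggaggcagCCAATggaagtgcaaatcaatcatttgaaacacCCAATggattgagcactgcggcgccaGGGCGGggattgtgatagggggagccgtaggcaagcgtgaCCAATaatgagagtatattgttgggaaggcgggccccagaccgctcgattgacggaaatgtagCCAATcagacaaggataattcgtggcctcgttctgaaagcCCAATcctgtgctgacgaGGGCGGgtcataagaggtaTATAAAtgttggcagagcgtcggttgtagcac
Dynll1: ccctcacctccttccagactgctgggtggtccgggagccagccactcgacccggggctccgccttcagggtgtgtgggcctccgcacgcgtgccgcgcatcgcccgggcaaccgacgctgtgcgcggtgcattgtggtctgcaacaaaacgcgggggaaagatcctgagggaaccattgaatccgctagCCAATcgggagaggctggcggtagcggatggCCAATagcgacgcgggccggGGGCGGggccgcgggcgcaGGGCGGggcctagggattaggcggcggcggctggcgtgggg
TATAAA was found in 1 of these 5 windows, that of Tubb4b, where its first base lies at position 19 counted from 1 at the annotated start, and so after that start. It occurs in 13.6% of all 32851 windows of this length in the table, and in 6 of the 48 windows of the 42 member genes that have any (12.5%). The GC box letters were in all 4 tubulin windows and in 39 of the 48 member windows (81.2%), beside 35.7% of all windows. The CCAAT box letters were in 3 of the 4 tubulin windows and in 22 of the 48 (45.8%), beside 37.4% of all. No 2 of these motifs share bases in the windows shown. Only these exact letters were searched, so near variants, such as TATAAG in the Tubb3 window, are not marked. These matches describe the letters only.

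Tubb3, the beta-tubulin largely restricted to neurons, was the most regular of the tubulins. Its Z-ratios were 2.23, 1.76, 0.567 and 0.972 on replicates 1, 3, 4 and 6, with 59Q in Cy5, and -1.36 and -0.769 on replicates 2 and 5, with 59Q in Cy3. All values of the first orientation were above 0 and both of the second below it, so the orientations did not overlap. As deposited its mean was 0.568 ± 1.40 (SD, n = 6; limma adjusted p = 0.999; exact 2-sided sign-flip permutation p = 0.344). Read as Cy5 over Cy3 the mean was 1.28 ± 0.634 (SD, n = 6), above 0 on 6 of 6 arrays, with a limma adjusted p of 0.0666. The exact sign-flip permutation p was 0.0312, the smallest that 6 arrays allow. Every gene with 1 sign on all 6 arrays in that reading has this permutation p. Of all genes on 6 arrays, 5.01% were above 0 throughout and 11.2% below 0 throughout. The share of all genes whose orientations did not overlap, a looser condition, is not given here. Several other members, among them Map4, Klc4 and Dync1h1, did not overlap either. The adjusted p of Tubb3 in that reading lay close to the threshold and passed it under 5 other settings, given in the closing section. Its dye coefficient was 1.22 ± 0.274 (SE), with a limma adjusted p of 0.171.

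Tuba1b, an alpha-tubulin of dividing and developing cells, had the highest single member value. It stood at 3.69, 0.680, 0.541 and 0.229 with 59Q in Cy5 and at -2.67 and -0.824 with 59Q in Cy3. The orientations did not overlap, and replicates 1 and 2 were far from the other arrays. Its mean was 0.274 ± 2.09 as deposited and 1.44 ± 1.40 as Cy5 over Cy3 (SD, n = 6; limma adjusted p = 0.159).

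Tubb5, a beta-tubulin abundant in developing brain, was read by 7 clones. Averaged over them it stood at 1.98, 0.860, 0.271 and 0.261 with 59Q in Cy5 and at -1.86 and -0.362 with 59Q in Cy3. The orientations again did not overlap. All 7 clones were above 0 on replicates 1 and 3 and below 0 on replicate 2, and 5 of the 7 had the sign of the dye orientation on every array. Their size differed: on replicate 1 they ran from 0.737 to 3.68 and on replicate 2 from -4.07 to -0.342. The gene's mean was 0.191 ± 1.28 as deposited and 0.933 ± 0.799 as Cy5 over Cy3 (SD, n = 6; limma adjusted p = 0.157).

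The other beta-tubulins followed replicates 1 and 2 but not all the rest. Tubb2b, another neuronal beta-tubulin, had 2.06, 0.358, 0.806 and -0.308 with 59Q in Cy5 and -2.50 and -0.143 with 59Q in Cy3. Replicate 6 fell below replicate 5, so its orientations overlapped, and its mean was 0.0459 ± 1.51 as deposited and 0.927 ± 1.12 as Cy5 over Cy3 (SD, n = 6; limma adjusted p = 0.999 and 0.213). Tubb4b, the mean of 3 clones, had 1.83, 0.243, -0.0241 and -0.270 with 59Q in Cy5 and -1.63 and -0.231 with 59Q in Cy3. Its 3 clones agreed within 0.0357 (SD) on replicate 1 and were all below 0 on replicate 2. Tubb6 had 1.79, -0.0714, 0.301 and -0.726 with 59Q in Cy5 and -1.67 and 0.0996 with 59Q in Cy3. On replicates 4 to 6 the values of both genes lay between -0.726 and 0.301, and their Cy5 over Cy3 means were 0.608 ± 0.895 and 0.476 ± 1.02 (SD, n = 6; limma adjusted p of 0.300 and 0.445). The pseudogene Tubb2a-ps2, present only on replicates 1 and 2, stood at 0.937 and -2.64. Tubulin coding sequences are much alike, so how far these cDNA clones separate the genes is uncertain.

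On replicate 1, 4 members were at or above the bound that the study's methods set for a Z-ratio, the value that leaves a 2-sided p of 0.05 under a normal distribution, and all 4 were tubulins (1.5% of all genes reached it). At the negative bound there was 1 member, Actr1a, beside 2.04% of all genes. On replicate 2, 2 members were at or below the negative bound, Tuba1b and Tubb2b (1.73% of all genes), and 1 was at or above the positive bound, Dync1i2 (1.1%). Of 3 genes outside the set picked for context after values were seen, Actb and Eef1a1 had the signs of Tubb3 and Tbp did not. Actb, cytoplasmic actin, stood at 2.75, 1.83, 0.580 and 0.649 with 59Q in Cy5 and at -1.82 and -1.04 with 59Q in Cy3. Eef1a1, a translation elongation factor, stood at 2.40, 2.19, 0.443 and 0.996 with 59Q in Cy5 and at -1.62 and -1.14 with 59Q in Cy3. The endogenous Tbp gene, whose clones may also detect the transfected human TBP (not tested), stood at 2.92, -0.0977, 0.176 and 1.04 with 59Q in Cy5 and at 2.31 and 1.74 with 59Q in Cy3, so it was above 0 in both orientations on every array but replicate 3. The dye coefficient had a median of 1.00 over the 6 tubulins, beside -0.159 over all genes. Its unadjusted limma p was under 0.05 in 4 of the 6 tubulins, beside 16.1% of all genes, and none passed after adjustment. What gave rise to this difference between orientations was not tested.

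Tubulins, kinesins and dynein with dynactin were then set side by side. Over the 6 arrays as deposited their medians were 0.119, 0.0305 and -0.147. Of 20 kinesins 12 had a mean above 0 and 8 below, and of 13 dynein and dynactin genes 3 lay above and 10 below, where 2785 of all 6463 genes lay above and 3678 below. Read as Cy5 over Cy3 the medians were 0.930 for tubulins, -0.0608 for kinesins and -0.274 for dynein and dynactin. Replicates 3, 4 and 6 run the same way whether read as deposited, by dye or by channel. On these 3 arrays 4 of 6 tubulins, 7 of 20 kinesins and 2 of 13 dynein and dynactin genes had a mean above 0. Of all 6463 genes, 2437 did. The medians were 0.375, -0.0667 and -0.385, beside -0.145 for all genes. The tubulin median by array was 2.02, 0.519, 0.421 and -0.0208 with 59Q in Cy5 and -1.77 and -0.297 with 59Q in Cy3. The dynein and dynactin median was -0.231, -0.637, -0.331 and -0.251 with 59Q in Cy5 and -0.199 and 0.176 with 59Q in Cy3, so it changed sign with orientation on replicate 5 but not on replicate 2. The kinesin median stayed between -0.171 and 0.172 on every array.

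**Figure D2:**
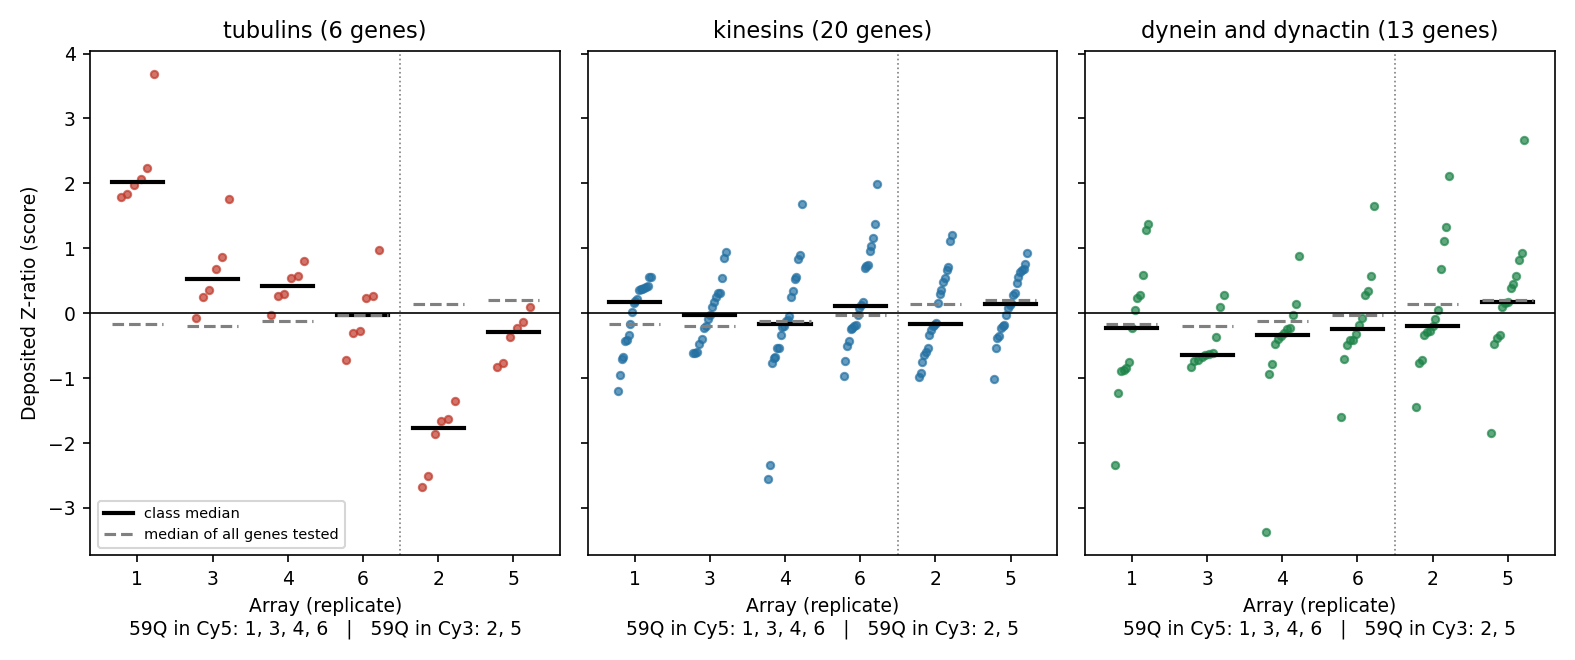
Z-ratio (score, vertical axis) of every tested tubulin, kinesin and dynein or dynactin gene on each array (horizontal axis), with the 59Q in Cy5 arrays left of the dotted line and the 59Q in Cy3 arrays right of it. Black bars are class medians and dashed grey bars the median of all genes tested. The tubulin median lies at 2.02 on replicate 1 and -1.77 on replicate 2, while the kinesin median stays between -0.171 and 0.172.

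No kinesin passed in either reading. The motors with the smallest unadjusted p as deposited were Kif28 (mean 0.422 ± 0.856, SD, n = 6), Kif2a, a depolymerising kinesin (-0.335 ± 0.519, n = 6), Kif22, a chromosome-binding kinesin (0.228 ± 0.366, n = 6), and Kif24, a centriolar kinesin (0.348 ± 0.957, n = 5), each with a limma adjusted p of 0.999. In the Cy5 over Cy3 reading Kif2a averaged -0.341 ± 0.514, Kif22 0.0875 ± 0.432 and Kif24 0.296 ± 0.979. Kif28 was the only kinesin with the sign of the dye orientation on every array. It had 0.211, 0.856, 1.68 and 0.727 with 59Q in Cy5 and -0.758 and -0.182 with 59Q in Cy3, and the orientations did not overlap. As Cy5 over Cy3 it averaged 0.735 ± 0.545 (SD, n = 6; limma adjusted p = 0.159). Kifc2, a kinesin expressed in neurons with its motor at the carboxyl end, went the other way. It had -1.20, 0.0917, -0.541 and 0.134 with 59Q in Cy5 and 1.12 and 0.636 with 59Q in Cy3. Both Cy3 values exceeded all Cy5 values, and its Cy5 over Cy3 mean was -0.544 ± 0.571 (SD, n = 6; limma adjusted p = 0.235). Kif2c, the mitotic relative of Kif2a, averaged 0.443 ± 0.475 in that reading (SD, n = 6; limma adjusted p = 0.282). On single arrays a few kinesins stood far out: Kif23 was at -2.55 and Kif3b at -2.34 on replicate 4, and Kif24 at 1.99 on replicate 6.

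Among the dynein and dynactin genes, the lowest mean read as Cy5 over Cy3 belonged to Dync1i2. This gene, which encodes an intermediate chain that links dynein to dynactin, had -0.873, -0.674, -0.404 and -1.60 with 59Q in Cy5 and 2.11 and 0.921 with 59Q in Cy3. All values of the first orientation were below 0 and both of the second above it. Its mean was -0.0862 ± 1.36 as deposited (SD, n = 6; limma adjusted p = 0.999) and -1.10 ± 0.635 as Cy5 over Cy3 (SD, n = 6; limma adjusted p = 0.0916). Its 2 clones gave -1.13 and -1.03 in that reading. The LC8 light chains behaved alike in sign. Dynll1 had -0.851, -0.718, -0.474 and -0.411 with 59Q in Cy5 and 1.33 and 0.162 with 59Q in Cy3. Dynll2 had -0.885, -0.623, -0.227 and -0.710 with 59Q in Cy5 and 0.0536 and 0.826 with 59Q in Cy3. Neither overlapped between orientations, and as Cy5 over Cy3 they averaged -0.657 ± 0.407 and -0.554 ± 0.338 (SD, n = 6; limma adjusted p of 0.157 and 0.177).

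Actr1a, the actin-related protein that forms the filament of dynactin, was the only member with 1 sign on all 6 arrays as deposited, beside 1.58% of all genes. It had -2.33, -0.651, -0.779 and -0.417 with 59Q in Cy5 and -0.0900 and -0.378 with 59Q in Cy3. Every value lay below 0, and both Cy3 values were nearer to 0 than every Cy5 value. Its mean was -0.774 ± 0.799 (SD, n = 6), with an unadjusted limma p of 0.0255, an adjusted p of 0.999 and an exact sign-flip permutation p of 0.0312. Every gene with 1 sign on all 6 arrays has that permutation p, so it only repeats a reason why Actr1a was named. Without replicate 1 the mean was -0.463, and in channel order, with replicate 1 turned, it was 0.00294. As Cy5 over Cy3 it was -0.618 ± 0.949 (limma adjusted p = 0.311), with both Cy3 arrays then above 0. Dctn5, the p25 subunit of dynactin that the study names, ranged from -3.38 on replicate 4 to 2.67 on replicate 5, with the largest SD of any tested member, 2.43 (n = 5). It was above 0 on 3 of 5 arrays and averaged -0.381 with 59Q in Cy5 and 0.608 with 59Q in Cy3. Its mean was 0.0147 as deposited and -0.472 as Cy5 over Cy3 (limma adjusted p = 0.999 and 0.749). Leaving out 1 replicate moved the deposited mean between -0.648, without replicate 5, and 0.863, without replicate 4, and its sign changed under 9 alternatives. Dynlrb2 on 4 arrays (mean -0.755 ± 0.875) and Dynlt3 on 5 arrays (0.248 ± 0.354), light chains of the roadblock and Tctex families, were the other dynein genes with the smallest p as deposited and did not pass (limma adjusted p = 0.999 for each). The mean of Dynlrb2 changed sign as Cy5 over Cy3, to 0.531 ± 1.07, and that of Dynlt3 was 0.133 ± 0.424.

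Dynein's regulators held the member with the smallest p as deposited. Nde1, a scaffold that ties LIS1 to dynein, was not measured on replicate 3 and had -0.626, -1.62 and -0.345 on replicates 1, 4 and 6, with 59Q in Cy5, and -0.162 and -1.16 on replicates 2 and 5, with 59Q in Cy3. All 5 values were below 0, in both orientations alike. Its mean was -0.781 ± 0.599 (SD, n = 5), with an unadjusted limma p of 0.0220, an adjusted p of 0.999 and an exact sign-flip permutation p of 0.0625, the smallest that 5 arrays allow. As Cy5 over Cy3 its mean was -0.254 ± 1.02 (limma adjusted p = 0.718). Its paralogue Ndel1 instead changed sign with the dye orientation: it had -0.898, -0.426, -0.596 and -1.88 with 59Q in Cy5 and 0.280 and 0.977 with 59Q in Cy3. These orientations did not overlap, and its mean was -0.423 ± 0.982 as deposited and -0.842 ± 0.573 as Cy5 over Cy3 (SD, n = 6; limma adjusted p = 0.139). Bicd2, an adaptor that activates dynein, averaged -0.331 ± 0.388 and Nudc, a nuclear migration protein that works with LIS1, -0.0334 ± 0.532 (SD, n = 6 each; limma adjusted p = 0.999 for each). As Cy5 over Cy3 they stood at -0.319 ± 0.4001 for Bicd2 and 0.249 ± 0.458 for Nudc, which thus changed sign.

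**Figure D3:**
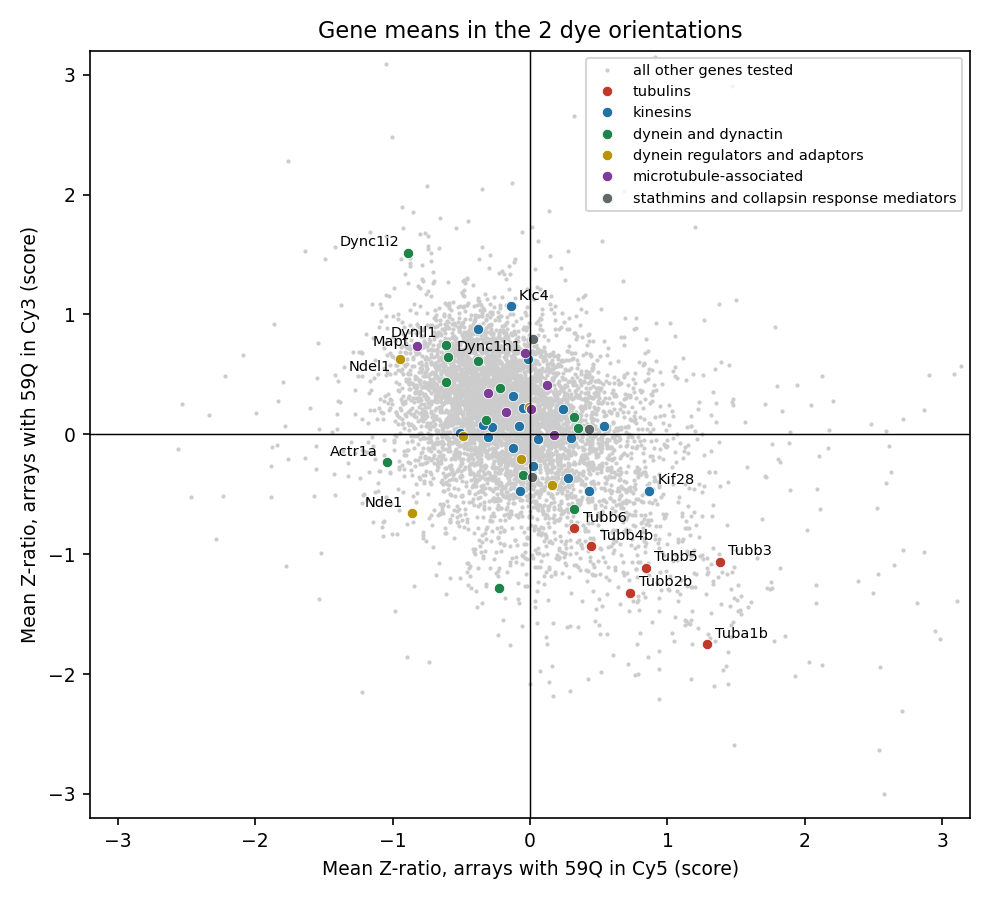
Mean Z-ratio (score) of each gene with 59Q in Cy5 (horizontal axis) against its mean with 59Q in Cy3 (vertical axis), for the members in the colour of their class and all other tested genes in grey; 25 genes lie beyond the axes at 3.2. All 6 tubulins sit at the lower right, Dync1i2 at the upper left, and Nde1 and Actr1a at the lower left, where both orientations were below 0.

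Among the 46 members on all 6 arrays, the means in the 2 orientations correlated at r = -0.748 (Spearman's rho = -0.688), and at r = -0.534 over the 40 that are not tubulins. Over all 4926 such genes r was -0.521. These correlations run across genes that share the same 6 arrays and are descriptions only. Of the 46, 4 members (8.7%) were positive on every 59Q in Cy5 array and negative on both 59Q in Cy3 arrays, beside 5.01% of all genes: Tuba1b, Tubb3, Tubb5 and Kif28. Another 4 (8.7%) had the opposite signs throughout, beside 11.2% of all genes: Dync1i2, Dynll1, Dynll2 and Ndel1.

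The microtubule-associated genes had means between -0.302 and 0.270 as deposited. Mapt, which encodes tau, had the largest mean difference between orientations among them. It had -1.42, -0.188, -0.707 and -0.967 with 59Q in Cy5 and 1.69 and -0.217 with 59Q in Cy3. The high value of replicate 2 stood apart, while replicate 5 lay within the range of the Cy5 arrays. Its mean was -0.302 ± 1.08 as deposited and -0.792 ± 0.724 as Cy5 over Cy3 (SD, n = 6; limma adjusted p = 0.999 and 0.175). Map4, which stabilises microtubules outside neurons as well, averaged 0.201 ± 0.493, Map1lc3a, an LC3 protein of autophagosomes, 0.112 ± 0.618, and Tubgcp5 of the gamma-tubulin ring complex 0.270 ± 0.560 on 4 arrays (SD; limma adjusted p = 0.999 for each). In the Cy5 over Cy3 reading Map4 changed sign to -0.249 ± 0.466 and Tubgcp5 to -0.145 ± 0.619, while Map1lc3a stood at 0.118 ± 0.616. Mapre1, the plus-end binding protein EB1, was below 0 on 5 of 6 arrays but at 1.16 on replicate 5, with a mean of -0.0903 as deposited and -0.318 as Cy5 over Cy3. Dpysl2, a collapsin response mediator that binds tubulin dimers, was above 0 on 5 of 6 arrays. It had 0.516, 0.608, 0.550 and 0.0392 with 59Q in Cy5 and -0.334 and 0.424 with 59Q in Cy3. The orientations overlapped, and its mean of 0.300 ± 0.371 (SD, n = 6) had a limma adjusted p of 0.999, with 0.270 ± 0.398 as Cy5 over Cy3. Stmn1 and Stmn3, stathmins that destabilise microtubules, averaged 0.277 ± 0.631 and -0.107 ± 0.622 (SD, n = 6 each). As Cy5 over Cy3 both changed sign, to -0.253 ± 0.643 for Stmn1 and 0.128 ± 0.617 for Stmn3.

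Averaging clones hid large and opposed values in some genes. Of the 58 genes 15 were read by more than 1 clone. Dynlrb1, a roadblock light chain picked out after its values were seen, had a gene average of only -0.147 ± 0.262. Its clone at probes 27865 and 27866 gave 2.28, 0.491, 0.190 and -0.187 with 59Q in Cy5 and -2.25 and -1.003 with 59Q in Cy3. Its clone at probes 22177 and 22178 gave -2.18, 0.0796, -0.901 and -0.172 with 59Q in Cy5 and 1.58 and 0.325 with 59Q in Cy3. On replicates 1, 2, 4 and 5 the clones had opposite signs, and as Cy5 over Cy3 they averaged 1.004 and -0.846. Pafah1b1, which encodes LIS1, had the widest gap between clone means as deposited, from -0.567 to 0.512 over 3 clones. On replicate 1 the clones stood at 1.45, -1.68 and -1.45, so the gene mean of -0.115 ± 0.302 (SD, n = 6) describes none of them. The next widest gaps were in Kif16b, an endosomal kinesin (-0.784 to 0.0900), Mapre1 (-0.240 to 0.524) and Tubb5 (-0.218 to 0.464), and 1 of the 2 clones of Kif16b and of Mapre1 was measured on 3 arrays only. Which clone of a gene reads its transcript was not tested.

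**Figure D4:**
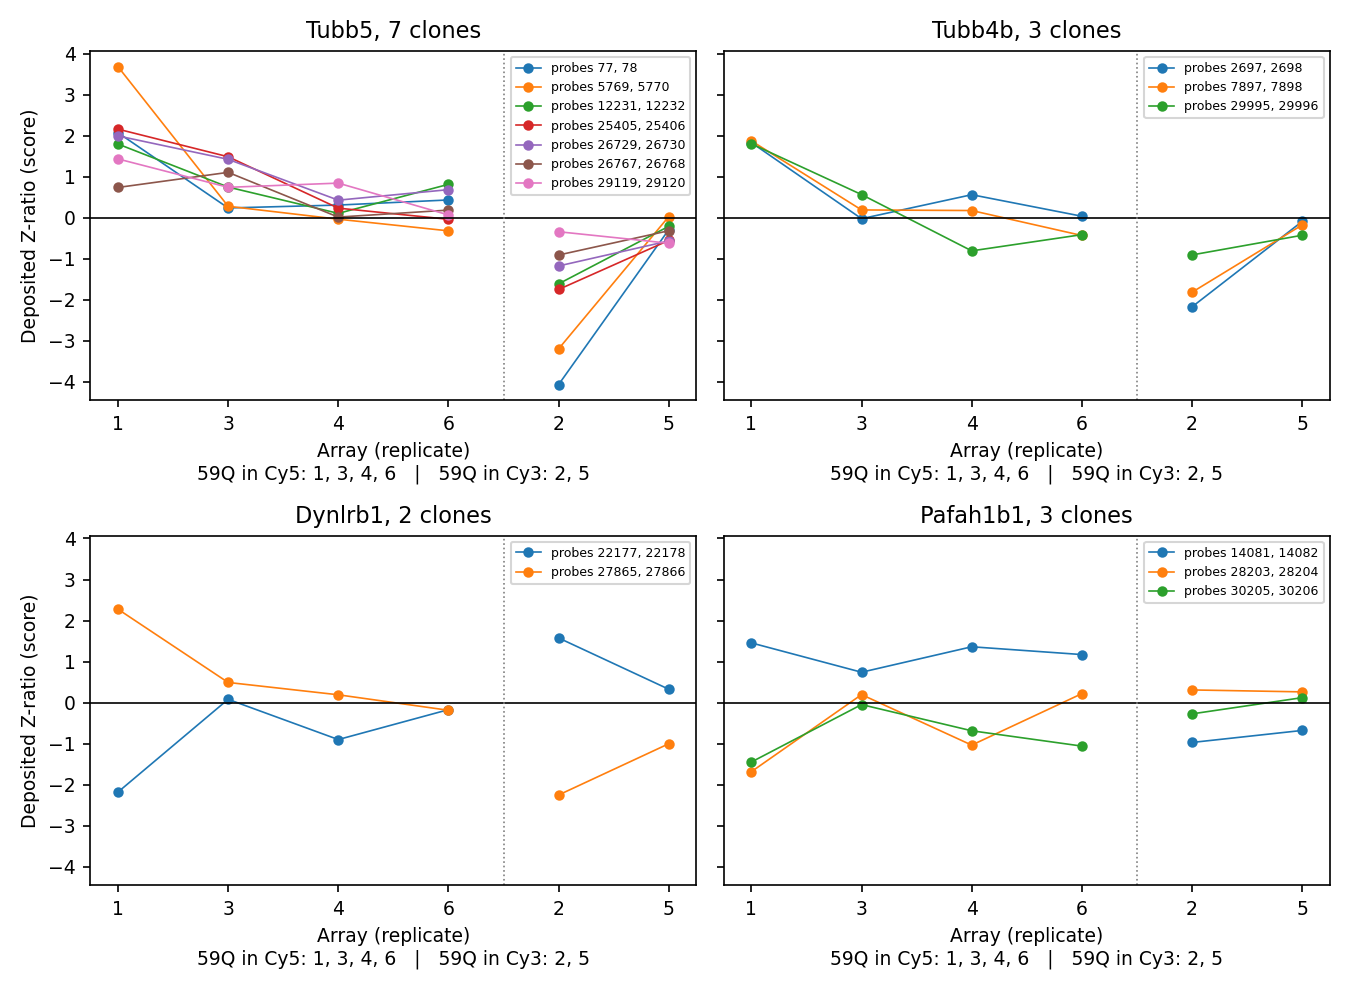
Z-ratio (score, vertical axis) of each clone of Tubb5, Tubb4b, Dynlrb1 and Pafah1b1 on each array (horizontal axis), 59Q in Cy5 left of the dotted line and 59Q in Cy3 right of it; each colour is 1 clone, the mean of a pair of spots. The 7 Tubb5 clones and the 3 Tubb4b clones share their sign on replicates 1 and 2, whereas the 2 Dynlrb1 clones oppose each other there and 1 Pafah1b1 clone stands at 1.45 against -1.68 and -1.45.

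Within a clone the paired spots were compared on each array. Over the member clones the pairs correlated at 0.884, 0.382, 0.530 and 0.885 on replicates 1, 3, 4 and 6 and at 0.834 and 0.786 on replicates 2 and 5, as a description across clones. The median absolute difference within a pair was 0.283, 0.109, 0.129 and 0.119 on replicates 1, 3, 4 and 6 and 0.380 and 0.148 on replicates 2 and 5. Replicate 3 thus had both the lowest correlation and the smallest difference between member pairs, and over all clones its pairs correlated at 0.889. Of the 82 member clones 21 had no value on replicate 3, 10 on replicate 4 and 12 on replicate 6.

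Other microtubule genes were listed separately, among them tubulin folding cofactors, severing enzymes, plus-end proteins, tau kinases and the CCT chaperonin that folds tubulin. Of 66 listed, 34 were tested, with 16 means above 0 and 18 below and a median of -0.0141. None passed as deposited (0 of 34 in limma, 1 at an unadjusted p under 0.05, beside 2.61% of all genes). That 1 was Tbcb, a cofactor that helps alpha-tubulin fold, averaging -0.693 ± 0.582 (SD, n = 6; limma adjusted p = 0.999), below 0 on every array but replicate 2. Read as Cy5 over Cy3, 0 of 34 passed. At an unadjusted limma p under 0.05, 3 had a higher value (beside 6.42% of all genes) and 5 a lower one (beside 13.4%). Among these, Clip1, a plus-end tracking protein, averaged -0.959 ± 0.717, Tbcd, a tubulin folding cofactor, -0.550 ± 0.233, and Gsk3b, a kinase of tau, 1.37 ± 1.79 (SD, n = 6 each; limma adjusted p of 0.139, 0.159 and 0.219). Of 7 CCT subunits tested, 5 had a mean below 0 in that reading and 2 above it, from -0.720 for Cct8 to 0.833 for Cct7. Over all genes, 4227 of 6463 lay below 0 in that reading.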

How the data were processed

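Total RNA of 59Q TBP-GFP and N3 vector transfected Neuro-2a cells was labelled by the authors with a tyramide signal amplification kit, hybridized to 6 two-colour cDNA arrays and transformed by the Z score method. The authors deposited a score per spot, the Z-ratio, for 31200 spots; the sources used here do not give its log base or state the direction of each deposited column, and no intensity was used. Columns were matched to samples by the labels. Neighbouring spots of 1 clone were averaged (15600 clones), and clones were averaged to genes. Of the spots, 18384 carry 1 gene symbol in the platform annotation, which can be old, and 514 carry several and were left out, among them 3 pairs naming members. Symbols, sequences and chromosomes come from RefSeq tables of GRCm38.p6; all 58 member symbols were current.

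Genes on at least 4 arrays (6463) were fitted in limma 3.58.1 (R 4.3.3; an intercept in lmFit, moderation by eBayes, p-values adjusted by Benjamini-Hochberg over all genes) on the values as deposited, on the values read as Cy5 over Cy3, and with a dye term. Each gene also had an exact 2-sided sign-flip permutation test. Class medians carry no test. Tables and figures were made with Python 3.11.15, pandas 2.3.3, scipy 1.17.1 and matplotlib 3.10.9. The fit was tested on simulated data. Members, classes, lists and tests were chosen with earlier results of these data known. The genes named are all tubulins, Dctn5 and members of 1 sign on 6 arrays in either reading. In each other class, up to 4 members with the smallest p as deposited and up to 3 as Cy5 over Cy3 were named. Up to 4 members with clone means farthest apart were named too. Dynlrb1, Tbp, Actb, Eef1a1 and the single-array kinesin values were added after values were seen. Genes from the list of other microtubule genes were named without a set rule. Alternatives covered centring, scaling and quantile normalization of arrays, direction, a dye term, the arrays and replicates used, missing values, the prior, limited spots, clones and symbols. Real-time PCR and blots were not analysed here.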

Additional observations from a re-analysis of the deposited data

Results flagged for a closer look

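In 4 of the 36 named values measured on 4 to 6 arrays, 1 array stood far from the rest by Dixon's test; chance flags about 1 in 20. Actr1a was at -2.33 on replicate 1, with its other arrays between -0.779 and -0.0900. Mapre1 was at 1.16 on replicate 5, with the others between -0.578 and -0.00598. Its value on replicate 5 averaged clones at 1.69 and 0.624, and the first of these was measured only on replicates 1, 2 and 5. Kif2a was at 0.664 on replicate 5, with the others between -0.672 and -0.203. Nudc was at -1.08 on replicate 2, with the others between -0.0622 and 0.365. Of these arrays, replicate 1 had 59Q in Cy5 and replicates 2 and 5 had 59Q in Cy3.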

How the results depend on the processing

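As deposited, 0 members passed under every alternative run. In the Cy5 over Cy3 reading, combined with further settings chosen after seeing the data, 1 member, Tubb3, passed with each array centred on its median (limma adjusted p = 0.0471), with MAD scaling (0.0389), quantile normalization (0.0492), spots limited to 5 (0.0497) or only genes on all 6 arrays (0.0368); with the median of clones 0 passed (0.0645). Over all genes these settings called 54, 76, 43, 50, 72 and 17, against 18. Leaving out 1 replicate in that reading called 0 genes each time, and Tubb3 had adjusted p-values from 0.0836 to 0.217. In channel order, with replicate 1 turned, the medians of tubulins, kinesins and dynein with dynactin were -0.633, 0.0369 and 0.0342; with a dye term they were -0.231, 0.000641 and 0.0241. Leaving out 1 replicate gave tubulin medians from -0.370 to 0.579. Of the 34 named genes, 25 changed the sign of their mean as deposited under at least 1 alternative and 9 were counted under none. As Cy5 over Cy3, 12 were counted as changing sign. The 9 include Tubb2a-ps2, which was on too few arrays to be fitted under most alternatives. Its mean was -0.851 as deposited and 1.79 as Cy5 over Cy3, so these counts miss its change of sign. The dye coefficient, refitted under alternatives added after seeing the data, called 0 members each time and between 0 and 6 of all genes. Signal over background was not used, so how dim a spot was is unknown. The cause of these changes was not tested.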
